A study of Mus musculus with 8 samples.

Results

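The glutathione (Gst), UDP-glucuronosyl (Ugt) and sulfo (Sult) transferases are the main conjugating enzymes of the liver. The genes described here were defined by their symbols, as the protein-coding genes of the mouse GENCODE M21 annotation (mm10 build) whose symbols mark them as Gsta, Gstk, Gstm, Gsto, Gstp, Gstt or Gstz, as Ugt1a to Ugt3a, or as numbered Sult genes. There were 64 of them among 21755 protein-coding genes of chromosomes 1 to 19 and X, namely 22 Gst, 21 Ugt and 21 Sult genes, and each matched a RefSeq gene of the same symbol and place. Open chromatin was mapped with ATAC-seq, in which a transposase inserts sequencing adapters into accessible DNA, in 50000 nuclei of frozen liver per library. The 4 control and 4 Alb-D2KO libraries came from adult C57BL/6 mice, which the study's methods give as C57BL/6J. In Alb-D2KO mice, floxed Dio2, the gene of the type 2 deiodinase that makes the thyroid hormone T3 from its precursor, is deleted by Cre recombinase driven by the albumin promoter. The study describes this inactivation as specific to hepatocytes. The control libraries carry "cre" in their names, and the study describes the controls of its other liver assays as mice that express Cre.

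The processed data used here are 2 lists of regions called on the pooled libraries of a genotype. The first holds 8031 regions found open in control liver alone, the regions of reduced chromatin accessibility (RCAs), or lost regions. A region is on this list where no overlapping region was called in Alb-D2KO liver, which is not a measured fold change. The second holds 250 regions that only the Alb-D2KO libraries had open. Every region has an area, which is the area under its curve of −log10 p in its own pooled call, and a q value at its summit. Because libraries were pooled, no value has a replicate error, no difference between genotypes was tested and the depth of the libraries is unknown from these lists. The 95% Wilson intervals given with shares of genes cover counting error over genes only, and neighbouring genes can share a region. At Dio2, on chromosome 12 from 90724552 to 90738438, the lists cannot check the deletion, since the nearest RCA lay 930.1 kb away. All 5 hepatocyte marker genes looked at (Alb, Ttr, Apoa1, Fgb and Tat) had an RCA within 10 kb and so were open in the control call. Of 5 markers of other liver cells, 1 had an RCA (Stab2, of sinusoidal endothelium). Over all protein-coding genes the share was 25.3%. The lists do not show whether markers without an RCA were open in control liver, so these counts do not compare cell types. Fewer hepatocytes and less open chromatin per hepatocyte cannot be told apart in these bulk libraries.

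Conjugation makes drugs, steroids, bile pigments and products of oxidation more soluble, so that they can leave the cell and be excreted. Gst enzymes add glutathione to reactive electrophiles, Ugt enzymes add a sugar, mostly glucuronic acid, and Sult enzymes add a sulfate taken from the donor PAPS. Many of the genes lie in tandem clusters, and several of the Ugt and Sult enzymes also conjugate thyroid hormones. The Ugt1a genes are a special case, since each has its own first exon and start site and all share the same last exons.

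The stretches below show the DNA under the summits of 7 RCAs as examples, namely 4 of those at start sites of transferase genes and the 3 with the largest areas. Each is 121 bases of mm10 centred on the summit, written on the strand of the gene, and capitals mark an exact match, on either strand, to 1 of 8 transcription factor motifs searched. The first 4 span chr1:21240340-21240460 (plus strand, bases −249 to −129 from the start site of Gsta3), chr3:108013368-108013488 (minus strand, bases −172 to −52 from a start site inside the body of Gstm1), chr19:4046147-4046267 (minus strand, bases −244 to −124 from the start site of Gstp2) and chr17:53846343-53846463 (minus strand, bases −124 to −4 from the start site of Sult1c2).
Gsta3: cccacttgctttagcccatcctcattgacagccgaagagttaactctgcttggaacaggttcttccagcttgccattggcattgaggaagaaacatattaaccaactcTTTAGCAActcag
Gstm1: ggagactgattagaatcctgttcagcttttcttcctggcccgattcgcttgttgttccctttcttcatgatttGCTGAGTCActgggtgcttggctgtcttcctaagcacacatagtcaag
Gstp2: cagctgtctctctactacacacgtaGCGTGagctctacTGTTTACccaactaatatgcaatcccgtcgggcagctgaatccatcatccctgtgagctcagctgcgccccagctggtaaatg
Sult1c2: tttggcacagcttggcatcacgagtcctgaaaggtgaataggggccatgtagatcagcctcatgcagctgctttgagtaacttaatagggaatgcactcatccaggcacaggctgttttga
In Gsta3 the capitals are a match to the C/EBP motif, and in Gstm1 a match to the NRF2 motif. In Gstp2 they are matches to the AHR and FOXA motifs, and the Sult1c2 stretch held no match. Stretches of 121 bases in the start-site RCAs of Gstm6, Gstp3 and Gstt3, not printed, held no match either. Those of Gstm6 and Gstt3 did not hold the summit. The same was found for stretches in the RCAs near Ugt1a1 and Ugt2b34, so the printed matches do not stand for start-site RCAs in general.

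The other 3 stretches lie away from start sites, at chr10:75795194-75795314 (minus strand, in an intron of Gstt1), chr10:75835329-75835449 (minus strand, in an intron of Gstt2) and chr7:126679018-126679138 (minus strand, bases −2706 to −2586 from the start site of Sult1a1). None of these held an exact match within the 121 bases, so they carry no capitals.
Gstt1: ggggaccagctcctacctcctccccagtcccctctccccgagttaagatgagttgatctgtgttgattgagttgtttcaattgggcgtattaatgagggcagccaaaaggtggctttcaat
Gstt2: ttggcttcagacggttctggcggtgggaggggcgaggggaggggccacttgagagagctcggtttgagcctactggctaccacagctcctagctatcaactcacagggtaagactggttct
Sult1a1: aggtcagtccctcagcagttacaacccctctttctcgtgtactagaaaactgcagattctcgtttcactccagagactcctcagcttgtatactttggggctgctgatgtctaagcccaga

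Of the 64 transferase genes, 31 had an RCA in the gene body or within 10 kb (48.4%, 95% interval 36.6 to 60.4%). Over all protein-coding genes the share was 25.3%. Among the 21691 other coding genes it was 25.2%, and 25.7% once averaged over the length classes of the transferase genes. This left a difference of 22.7 percentage points. The other genes were matched on length alone, not on being open or expressed in liver. By family, Gst genes had an RCA in 14 of 22 cases (63.6%, 43.0 to 80.3%) against 20.9% for other genes of their lengths. Ugt genes had an RCA in 12 of 21 cases (57.1%, 36.5 to 75.5%) against 28.8%, but 9 of the 12 were Ugt1a genes that share 1 region. Sult genes had an RCA in 5 of 21 cases (23.8%, 10.6 to 45.1%) against 27.7%, a share near the background. The intervals of Gst and Sult overlap, and no replicate test of the difference between families was possible. Counting the Ugt1a genes as 1 gene, a choice made after seeing the data, lowered the Ugt share to 30.8% (4 of 13) and the share of all transferase genes to 41.1% (23 of 56).

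**Figure D1:**
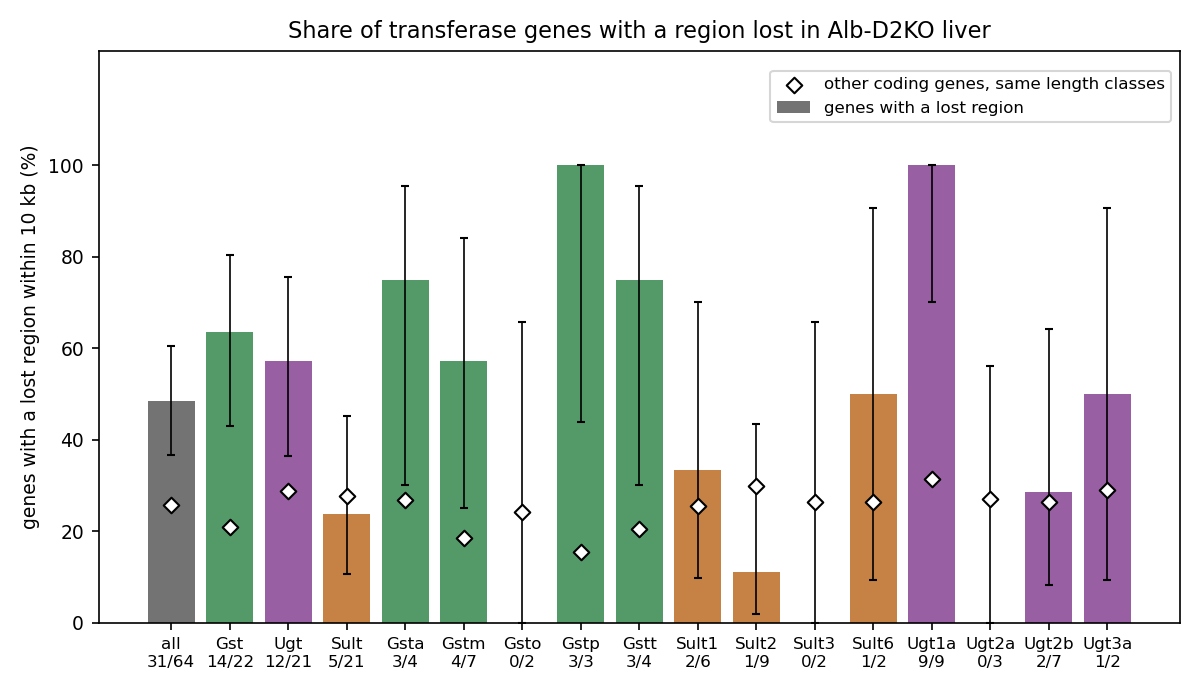
Share of transferase genes with an RCA (lost region) in the gene body or within 10 kb, in percent, for all 64 genes, the 3 families and the subfamilies with more than 1 gene; the numbers under each bar are genes with an RCA and genes in all. Error bars are 95% Wilson intervals over genes, and diamonds are other coding genes of the same length classes. The Gst bar (63.6%) and its lower interval end (43.0%) lie above its diamond (20.9%), whereas the Sult bar (23.8%) lies just under its diamond (27.7%).

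Inside gene bodies, 23 of the 64 genes held an RCA, where the share over all coding genes was 15.8%. By family these were 12 Gst, 9 Ugt and 2 Sult genes, and 8 of the 9 Ugt genes were Ugt1a genes that share 1 region. Within 200 bp of a start site of the gene itself, 8 of the 64 had an RCA, where the share over all coding genes was 5.99%. Of these 8, 7 were Gst genes (Gsta3, Gsta4, Gstm1, Gstm6, Gstp2, Gstp3 and Gstt3) and the other was Sult1c2. No Ugt gene had an RCA at its own start site. No region open only in Alb-D2KO liver lay within 10 kb of a transferase gene, where the share over all coding genes was 1.02%. The nearest such region lay 301.3 kb from Gsta3, the next 495.5 kb from Sult6b1.

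As the nearest comparable group of liver enzyme genes, the 100 Cyp (cytochrome P450) genes, which carry out the oxidations that often come before conjugation, had an RCA within 10 kb in 30 cases (30%, 21.9 to 39.6%). Other coding genes of the Cyp lengths stood at 26.0%. The Gst share thus lay above the Cyp share, and their intervals did not overlap (43.0% against 39.6% at the nearest ends), whereas the Ugt and Sult intervals overlapped that of Cyp. These intervals do not allow for clustering of genes. By the region numbers described below, at least 29 of the 70 Cyp genes with no RCA had no control region to lose. This held for at least 1 of the 8 Gst genes with no RCA. Both are least counts, since a control region numbered between the flanking RCAs can lie far from the gene. The shares are not adjusted for it, so Gst and Cyp genes were not compared at equal openness in control liver.

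The 31 genes were reached by 30 distinct RCAs, of which 20 lay at Gst, 3 at Ugt and 7 at Sult genes. The 20 genes with a single RCA outnumbered the 9 with 2 and the 2 with 3 (Gstp2 and Gstp3). Of the 30 regions, 20 lay in a transferase gene body, 7 were within 10 kb of more than 1 transferase gene, and for 27 the nearest coding gene was a transferase gene. By class, 10 of the 30 regions were at promoters (within 200 bp of any annotated start site, 33.3%), 3 in exons (10%), 9 in introns (30%) and 8 intergenic (26.7%). Among the 6366 RCAs within 10 kb of other coding genes, which is the like-for-like set, these shares were 23.0%, 11.9%, 47.1% and 18.1%, and in the whole RCA list, which includes regions far from genes, 19.4%, 10.2%, 40% and 30.3%. The promoter share at transferase genes was thus above both, the exon share close to both and the intron share below both, while the intergenic share was above the first and below the second. Among the 48 RCAs at Cyp genes the shares were 31.25%, 10.4%, 37.5% and 20.8%. The promoter share of transferase genes was thus close to that of Cyp genes and not particular to them. Among Gst regions 7 of 20 were promoter regions, among Sult regions 3 of 7, and among Ugt regions 0 of 3.

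The area of the 30 regions had a median of 285 (quartiles 231 and 331), close to the median of 278 of all RCAs (quartiles 232 and 351). The smallest area was 202 among the 30 regions, 200.004 among all RCAs and 200.06 among regions open only in Alb-D2KO liver. Regions with smaller areas are thus in neither list. Whether RCAs just above this minimum kept a weaker open region in Alb-D2KO liver was not tested. A total of 13 of the 30 (43.3%) had an area of at least 300, against 40.8% of the whole list. The median area was 294 at Gst genes (205 to 537, n = 20), 256 at Ugt genes (226 to 286, n = 3) and 251 at Sult genes (202 to 509, n = 7). The regions were 371 bp wide at the median, against 326 bp in the whole list, and their −log10 q at the summit had a median of 3.05, against 3.14. Summed over the RCAs of a gene, the median area was 505 for the 14 Gst genes, 286 for the 12 Ugt genes and 312 for the 5 Sult genes, and 355 for the 5466 other coding genes with an RCA.

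**Figure D2:**
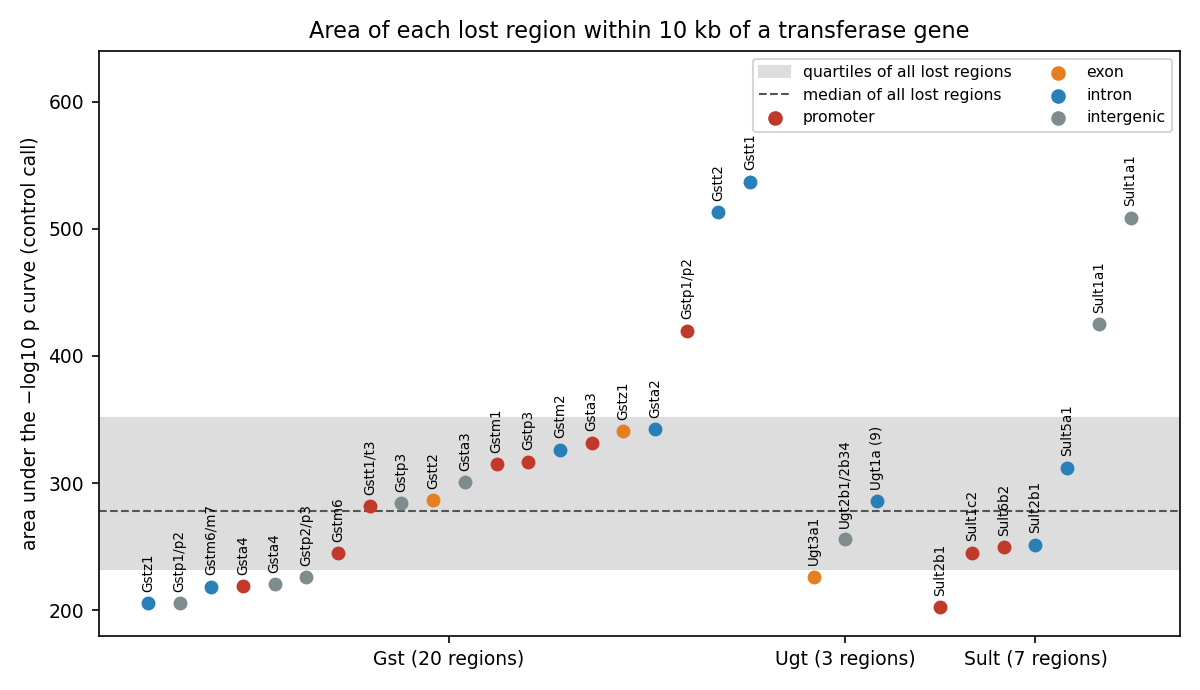
Area under the −log10 p curve of each of the 30 RCAs within 10 kb of a transferase gene, 1 point per region, ordered by area within Gst, Ugt and Sult and coloured by class; the dashed line and grey band are the median (278) and quartiles (232 and 351) of all 8031 RCAs. The axis starts above 0. The points above the band belong to Gstt1, Gstt2, Sult1a1 (2 regions) and Gstp1/p2, and the 3 Ugt points all lie at or under 286.

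Among the Gst genes, the theta class (Gstt), whose enzymes act on small halogenated compounds, held the largest areas. Gstt1 (ENSMUSG00000001663.10) had an intronic RCA of 516 bp with an area of 537, at chr10:75794821-75795336, the largest of the 30 and higher than 96.0% of all RCAs. Gstt2 (ENSMUSG00000033318.7) had an intronic RCA with an area of 513, at chr10:75835294-75835701, and an exonic RCA with an area of 286, at chr10:75836209-75836478. Gstt3 had an RCA at its start site with an area of 282, at chr10:75780776-75781296, which also reached within 10 kb of Gstt1 and at the same place met a start site of the overlapping gene Gm20441. Gstt4 lay 12751 bp from the nearest RCA, just outside the distance allowed.

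The pi class (Gstp), which in mouse liver is a major cytosolic form, had an RCA at each of its 3 genes. At Gstp2 (ENSMUSG00000038155.11) an RCA covered the start site with an area of 419.7, at chr19:4045919-4046377, the largest promoter region of the 30. At Gstp3 (ENSMUSG00000058216.13) the start site RCA had an area of 317, at chr19:4059284-4059855. Gstp1 (ENSMUSG00000060803.6) had none at its own start site. It was reached by the Gstp2 promoter region, 7934 bp upstream, and by an intergenic region of 717 bp with an area of 206, 912 bp beyond its end. Intergenic regions with areas of 226 and 284 lay on the 2 sides of Gstp3. Summed areas were 851 for Gstp2, 827 for Gstp3 and 625 for Gstp1, which share regions among them.

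In the alpha class (Gsta), whose enzymes act on lipid peroxides and their breakdown products, 3 of 4 genes had an RCA. Gsta3 (ENSMUSG00000025934.15) had an RCA at its start site with an area of 332, at chr1:21240251-21240743, and an intergenic one upstream with an area of 301, at chr1:21231767-21232282, whose nearest coding gene was Tmem14a. Gsta4, known for the detoxification of hydroxynonenal, had an RCA at a start site inside the gene with an area of 219, at chr9:78191900-78192111, and an intergenic one beyond its end with an area of 220.3. Gsta2 had an intronic RCA with an area of 342, at chr9:78348237-78348553, 1069 bp upstream of its nearest annotated start site. Gsta1, its close relative, lay 13194 bp from the nearest RCA.

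In the mu class (Gstm), which acts on epoxides and other bulky electrophiles, 4 of 7 genes had an RCA. Gstm1 (ENSMUSG00000058135.12) had an RCA at a start site inside the gene with an area of 315, at chr3:108013290-108013838. Gstm2 had an intronic RCA with an area of 326, at chr3:107984424-107984986. At Gstm6 an RCA of area 245 met the start site, at chr3:107943571-107943945, and an intronic RCA of area 219, at chr3:107939466-107939702, also lay 7649 bp from Gstm7. Gstm3, Gstm4 and Gstm5 had none within 10 kb, the nearest lying 15141 bp from Gstm3. Beyond these classes, Gstz1, the maleylacetoacetate isomerase of tyrosine breakdown, had an exonic RCA with an area of 341, at chr12:87154518-87154831, and an intronic one with an area of 205, at chr12:87148262-87148424. Gsto1, Gsto2 and Gstk1, the omega and kappa enzymes, had none.

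The 12 Ugt genes with an RCA were reached by 3 regions only. All 9 Ugt1a genes shared an RCA of 299 bp with an area of 286. It was intronic in 8 of them and lay 1452 bp upstream of Ugt1a1 (ENSMUSG00000089960.1), the enzyme that conjugates bilirubin, so that its distance from a start site ran from 1452 bp for Ugt1a1 and 9608 bp for Ugt1a2 to 154728 bp for Ugt1a10. Counted from start sites rather than bodies, 3 of 21 Ugt genes remained. The second region, intergenic with an area of 256 at chr5:86910842-86911116, lay between Ugt2b34 and Ugt2b1, at 3905 bp from Ugt2b34 and 5522 bp from Ugt2b1. Ugt2b enzymes conjugate steroids and bile acids. The last, exonic with an area of 226 at chr15:9306107-9306640, was in Ugt3a1, whose enzyme uses a sugar other than glucuronic acid. The remaining 5 Ugt2b genes, all 3 Ugt2a genes and Ugt3a2 had none within 10 kb.

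Among the Sult genes, Sult1a1 (ENSMUSG00000030711.16), the phenol sulfotransferase, stood first with a summed area of 934, the highest of all 64 genes. Its 2 RCAs were intergenic and lay upstream, the nearer 2174 bp away with an area of 509, at chr7:126678606-126679255, and the farther 4726 bp away with an area of 425, at chr7:126681158-126681524. Sult2b1, which sulfates cholesterol, had an intronic RCA with an area of 251, at chr7:45739484-45739647, and a promoter RCA with an area of 202, at chr7:45783416-45783711, where the start site belongs to the neighbouring gene Lmtk3. Sult1c2 had an RCA at its own start site with an area of 245, at chr17:53846331-53846547. The RCA of Sult5a1 had an area of 312 and lay 4539 bp upstream, at chr8:123162854-123163159, in an intron of Gm20388. That of Sult6b2 had an area of 249.5 and lay 9548 bp upstream, just inside the distance allowed, at chr6:142814050-142814366, at the start site of Gm7457 with St8sia1 as the nearest coding gene. All 8 Sult2a genes, which sulfate bile acids and steroids, had none, nor did Sult1b1, Sult1c1, Sult1d1, Sult1e1 (the estrogen sulfotransferase), Sult3a1, Sult3a2, Sult4a1 or Sult6b1.

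A gene can lack an RCA because its open regions stayed open in Alb-D2KO liver or because no region was called there in control liver. The region numbers of the caller bear on this, since they rise along each chromosome and a number missing between neighbouring RCAs belongs to a control region that is not on the RCA list. By the highest number there were at least 22368 control regions, of which the 8031 RCAs are at most 35.9%. Of the 33 transferase genes with no RCA, 7 (21.2%) had no other control region between the RCAs on either side, namely Gsta1, Ugt2a3, Ugt2b5, Ugt2b35, Ugt2b36, Ugt2b37 and Ugt3a2. The same held for 630 of 16225 other coding genes with no RCA (3.88%) and for 29 of 70 Cyp genes. By this numbering, no open region was called at these 7 genes in control liver, so none could be lost. For the other 26 genes the lists do not say where the other control regions lie.

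By locus, with transferase genes within 200 kb of each other as 1 locus, there were 20 loci, and 14 had an RCA. The Gstp locus had the most, with 5 RCAs and at most 3 other control regions in the 75 kb between the RCAs that flank it, so that at least 62.5% of its control regions were lost. The areas of these 5 RCAs ran from 206 to 419.7, the lowest near the minimum of the list. These counts give RCAs of small and large area the same weight. Gsta3, alone in its locus, had 2 RCAs and at most 1 other (at least 66.7% lost). The Gstt locus had 4 RCAs and at most 6 others (at least 40% lost), and the locus of Gsta1, Gsta2 and Gsta4 had 3 and at most 5 (at least 37.5%). In the Gstm locus 4 RCAs stood beside at most 16 others (at least 20%), of which 1 lay between the RCAs. The Ugt1a locus had 1 RCA and at most 5 others. The Ugt2 locus on chromosome 5, which holds 10 Ugt2 genes with Sult1b1, Sult1d1 and Sult1e1 over 701.8 kb, had 2 RCAs, 1 of them within 10 kb of a transferase gene, and at most 4 other control regions in 1830 kb. Across the Sult2a locus of 870.3 kb there were no RCAs and at most 6 other control regions in 1495 kb.

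**Figure D3:**
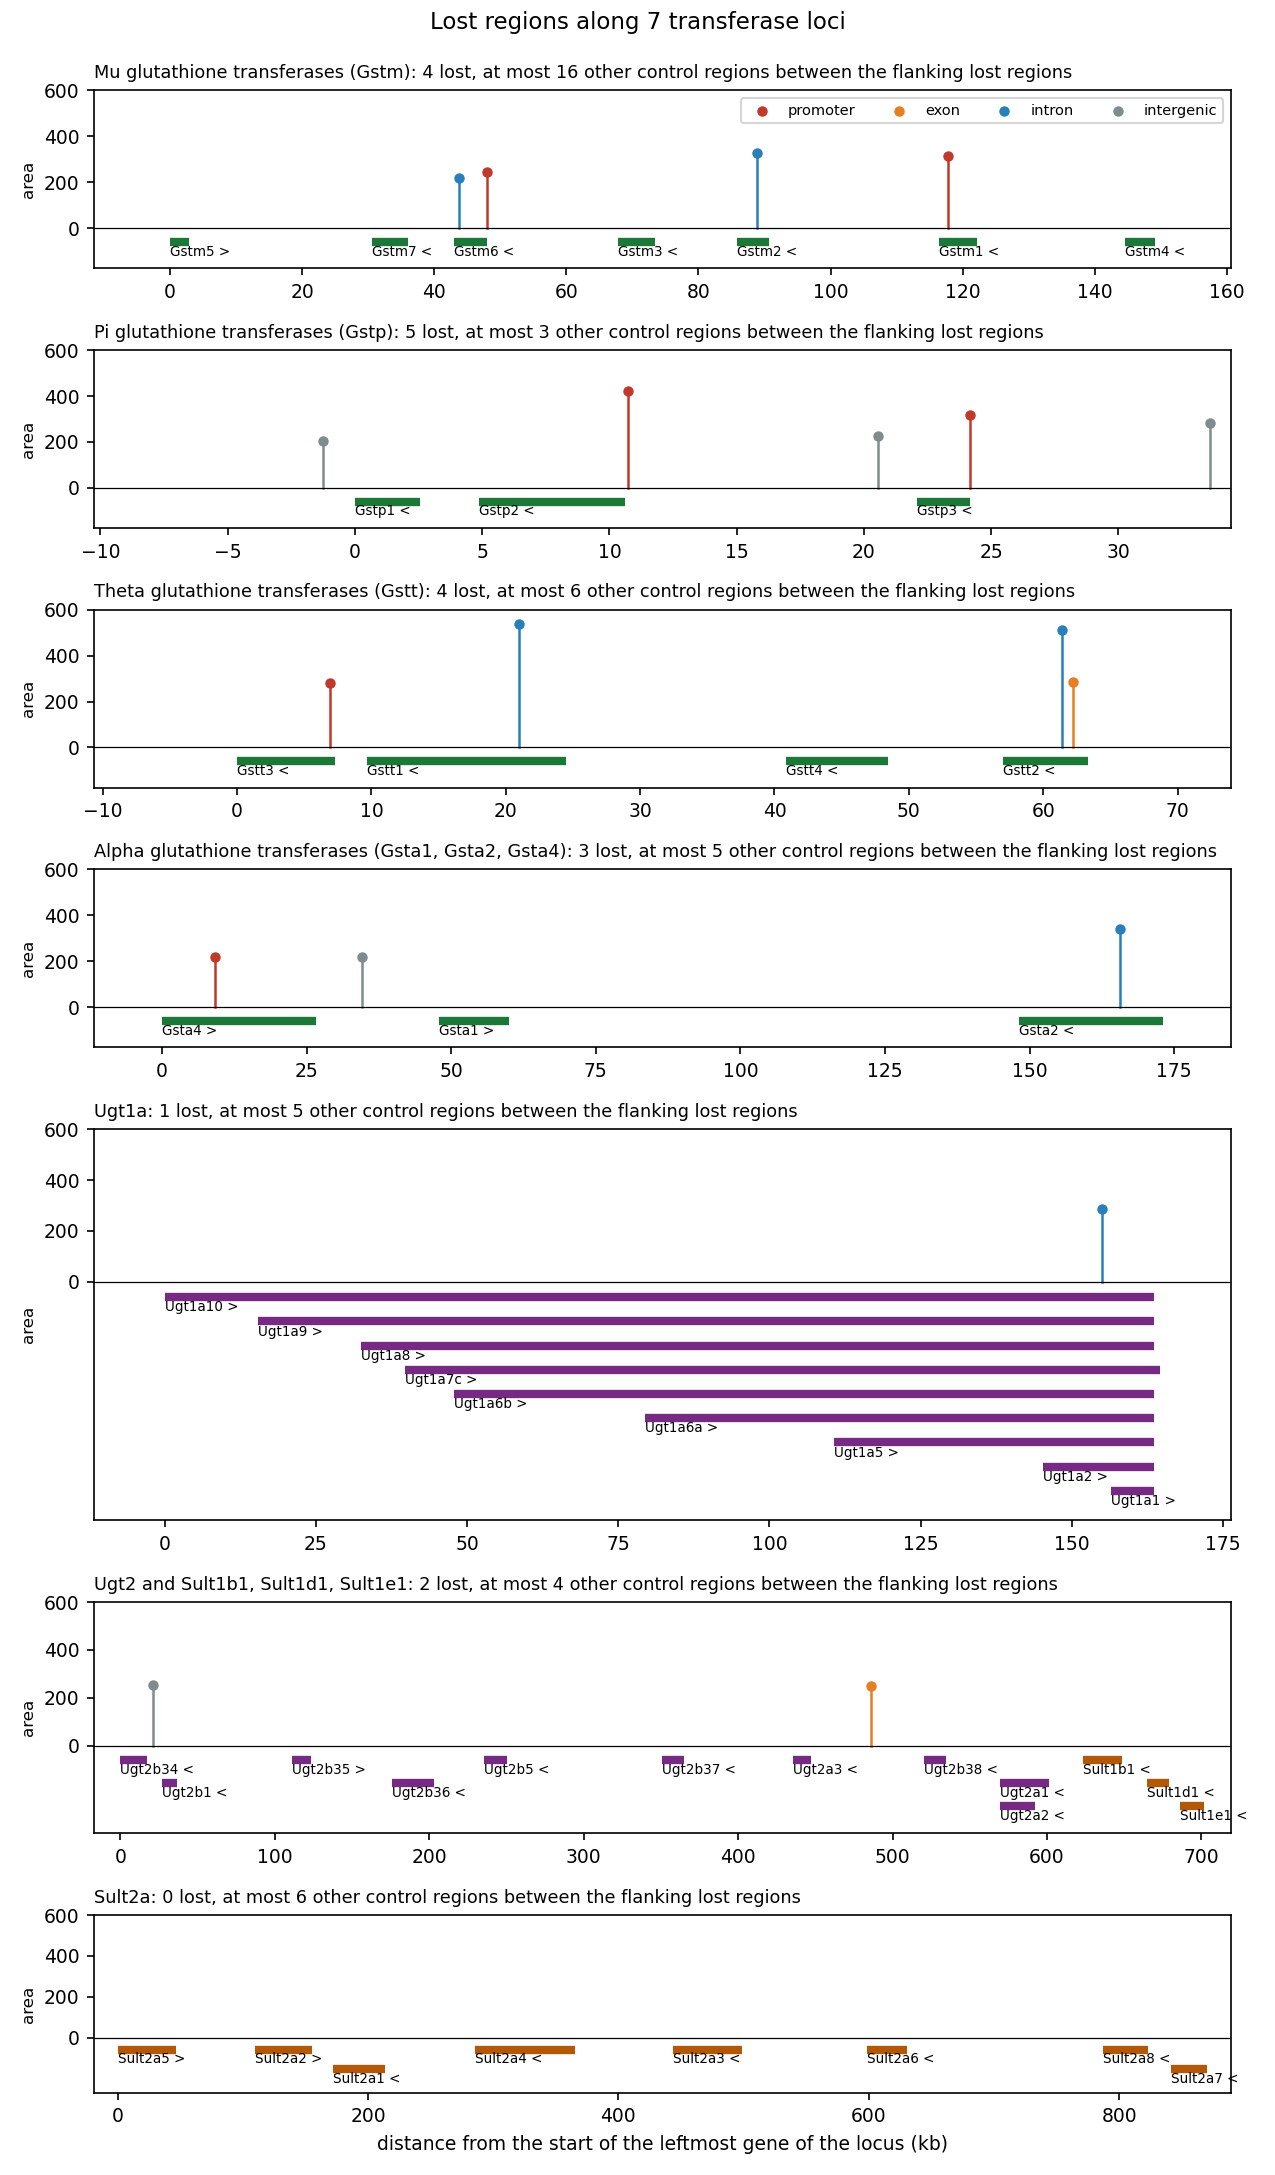
RCAs along 7 transferase loci, each panel with its own horizontal scale in kb from the start of the leftmost gene; stems show the area of each RCA within 10 kb of the locus, coloured by class, and bars below show gene bodies with arrows for the strand. Panel titles give the number of RCAs and the most other control regions that the region numbers allow. The Gstp panel holds 5 stems, the Ugt1a panel 1 stem near its right end, and the Sult2a panel none; the right stem of the Ugt2 panel is over 10 kb from any transferase gene.

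Reads that map equally well to several places have a low mapping quality, and the authors removed reads of low mapping quality, so near-identical copies of the tandem transferase genes were searched for. A window of 501 bp around the start site had a copy of at least 95% identity elsewhere in the genome for 7 of the 64 genes. These were Gsta1 (99.4%, near Gm3776), Sult2a1 and Sult2a2 (99.8%, each other), Sult2a4 (97.6%), Sult2a5 (96.0%), and Ugt2b37 and Ugt2b38 (97.1%, each other). None of the 7 had an RCA, against 31 of the 57 genes without a copy (54.4%). Among other coding genes, 53 of 1431 with a copy (3.70%) and 5413 of 20260 without (26.7%) had an RCA. The 8 Sult2a genes were 4 with and 4 without a copy, and neither set had an RCA. Of the 30 RCAs themselves, 2 had a copy. The intronic Gsta2 region was 97.8% identical to a stretch just upstream of Gsta1, at chr9:78229691-78230007, where no RCA was called, and the exonic Gstz1 region was 95.9% identical to a stretch of chromosome 13. The part of the mapping filter in these counts was not tested.

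**Figure D4:**
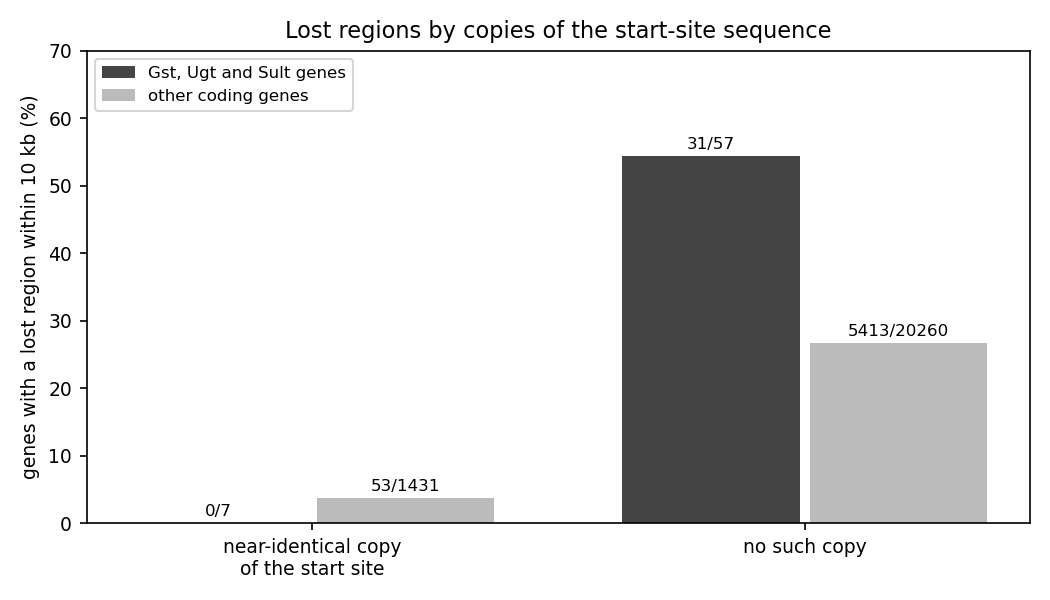
Share of genes with an RCA (lost region) within 10 kb, in percent, for genes with and without a near-identical copy of the sequence around their start site; dark bars are the 64 transferase genes, light bars other coding genes, and the numbers above the bars are genes with an RCA and genes in all. Genes with a copy lie at 0 of 7 and 53 of 1431, those without at 31 of 57 and 5413 of 20260.

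The sequences of the RCAs at transferase genes were compared with all RCAs by 8 short motifs, searched on both strands in 300 bp around the summit, with each motif counted on its own where matches overlapped. C/EBP factors, which act in liver-specific transcription, bind TTGCNNAA, and this was found in 11 of the 30 regions (36.7%) against 18.4% of 8021 RCAs. The motif TGACNNNGC of NRF2, a regulator of many Gst genes under oxidative stress, was found in 7 (23.3%) against 15.4%. That of the dioxin receptor AHR, GCGTG, was found in 9 (30%) against 24.5%. The others were near or under the share of all RCAs, with SP1 (GGGCGG) in 4 (13.3% against 17.7%), FOXA (TGTTTAC) in 2 (6.67% against 6.66%), HNF1 (GTTAATNATTAAC with up to 2 mismatches) in 1 (3.33% against 4.09%), and 2 copies of AGGTCA spaced by 1 base, the site type of HNF4 and PPAR, in 3 (10% against 11.6%). The same pair spaced by 4 bases, the site type of thyroid hormone receptor and CAR, was found in 1 region, that of Sult5a1 (3.33% against 6.08%). Both pairs were allowed up to 2 mismatches. A match is a description of the sequence and not a bound site.

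By region, C/EBP matches were at Gst genes in 8 cases, among them the RCAs of Gsta2 and Gstz1 and the start-site RCAs of Gsta3, Gsta4, Gstp2 and Gstp3. NRF2 matches lay in the RCAs of Gsta3, Gstm1, Gstm6, Gstp2 and Gstt2, in that of Ugt3a1, and in the region of Sult2b1 at the Lmtk3 start site. The Gstp2 region and that Sult2b1 region held 4 of the 8 motifs each. GC content was 49.1% at the median for the 30 regions and 51.9% for all RCAs. The 10 promoter regions at transferase genes, at 51.8%, had less GC than promoter RCAs in general, at 60% (n = 1560), and the motif shares are not adjusted for GC content.

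Other genes of the conjugation pathways were looked at in the same way, against the share of 25.3% over all coding genes. Of 11 genes that supply or use glutathione, 5 had an RCA within 10 kb. At its own start site Oplah, which recycles oxoproline to glutamate, had an RCA with an area of 511, Gclc, the catalytic subunit of the rate-limiting enzyme of glutathione synthesis, 296, and Gpx4, the peroxidase of membrane lipids, 234. The largest summed areas of that list were 867 for Oplah and 804 for Gpx1. Of 7 membrane-bound or distant glutathione transferases, only Ptges had an RCA (area 426). Mgst3, a microsomal glutathione transferase, had instead an Alb-D2KO-only region 1765 bp away, at chr1:167369995-167370201 with an area of 215.

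Of 9 genes for the supply of the sugar and sulfate donors or for deconjugation, 4 had an RCA, led by Papss2, which makes the sulfate donor PAPS, with 3 RCAs summing to 816 and 1 of them at its start site (228), and by Slc35d1, a transporter of nucleotide sugars (302). Of 13 other conjugating and hydrolysing enzymes, 9 had an RCA. Among those with a start-site RCA were As3mt, the arsenic methyltransferase (486), Ephx2, the soluble epoxide hydrolase (399), and Nqo1, a quinone reductase (326). The RCAs of Ephx2 summed to an area of 1235.

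Of 12 regulator genes, Keap1 and transcription factors known to act on the conjugating genes, 10 had an RCA, and Nfe2l2, which encodes NRF2, and Arnt, the partner of AHR, had none. The largest summed areas were 3058 at Cebpa and 2349 at Hnf4a. Start-site RCAs were found at Ahr (343), Nr1i2, which encodes the xenobiotic receptor PXR (343), Keap1, the inhibitor of NRF2 (319), Ppara (292) and Hnf4a (219.8). Nr1i3, which encodes the receptor CAR, had 3 RCAs summing to 1149.9, 1 of them at a start site of another gene. The lists are short, and their counts carry no test.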

How the data were processed

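ATAC-seq was done on 4 control and 4 Alb-D2KO libraries, grouped by the genotype in their labels. The authors trimmed adapters with NGmerge, aligned reads to mm10 with BWA 0.7.17, checked them with FastQC and Picard, dropped alignments that were duplicate, supplementary, chimeric or under a mapping quality of 30, called regions with Genrich 0.6 (q 0.05) on the libraries of a genotype together, leaving out regions blacklisted from single libraries, and subtracted overlaps between genotypes. The deposited signal of a region is its area under the −log10 p curve, the deposited −log10 p and q are those of its summit, and the deposited score is the area per base, capped. The depth per library is unknown from these lists, and no interval covers reads.

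From the lists, RCAs were assigned to genes by overlap with the gene body or a distance of at most 10 kb, and to the first class met of promoter, exon, intron and intergenic (GENCODE M21; Python 3.11.15, pandas 2.3.3, scipy 1.17.1). Other genes were averaged over 10 length classes. Copies were megablast alignments with 95% identity or more that covered 80% or more of a sequence (BLAST 2.17.0). Motifs were read with pysam 0.24.0 from the mm10 sequence in RefSeq's release. Scripts were tested on simulated data. Genes named are those with a promoter RCA, the 6 largest summed areas per family and, in other lists, those with a start-site RCA or the 2 largest sums; genes without an RCA, numbering and copies are also named. The members and lists were chosen with earlier results of these data known. No p-value was computed, since pooled lists hold no replicates. Alternatives were other distances, thresholds, promoter windows, length classes and gene clusters. The values of 1 gene of the other lists and the sequence of 1 region are not reported here.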

Additional observations from a re-analysis of the deposited data

How the results depend on the processing

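With an area of at least 300, the share of transferase genes with an RCA fell from 48.4% to 18.8%, that of Ugt genes to 0 of 21 and that of Sult genes to 9.52%, the distinct regions to 13 and the difference from other genes of similar length to 5.59 percentage points. The share of Gst genes fell from 63.6% to 45.5%. With a summit q of at most 0.001, the shares were 34.4% for all and 40.9% for Gst genes, with 16 regions. Overlap with the gene body alone gave 35.9% for all and 9.52% for Sult genes, and 10 kb around start sites gave 34.4% for all and 14.3% for Ugt genes. The share of other genes of similar length, at first 25.7%, fell at these settings too. It was 13.2% with the area limit, 20.2% with the q limit, 15.8% in gene bodies and 20.7% around start sites. No such share was computed for single families at these settings. Counting the Ugt1a genes as 1, an alternative added after seeing the data, gave 30.8% for Ugt genes. A promoter window of 3000 bp placed 80% of the regions at promoters, from 33.3%. The difference of 22.7 percentage points from other genes of similar length kept its sign under each of its 14 alternatives, but it was 13.7 with 10 kb around start sites, 14.2 with a summit q of at most 0.001, 16.4 with the Ugt1a genes counted as 1 and 11.6 by gene clusters in place of genes. In all, 76 of 90 recomputed values, these 4 included, moved by less than the counting interval or, for counts, stayed within 1.5 times. The cause of the shifts was not tested beyond these settings. No replicate could be left out, and the pooled libraries cannot be separated. No paired analysis was possible because the lists hold pooled calls and the results come from no test. The unknown depth limits what can be said of weak regions.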
